A study of Mus musculus with 47 samples.

Results

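Livers of Bmal1-/- and wild-type mice were compared at ZT18, which is 18 h after lights on and the middle of the dark phase. The libraries were selected by the time and mouse named in the deposited table, and 8 of the 47 libraries of the series belong here, 4 from wild-type mice (replicates 11, 12, 26 and 27) and 4 from Bmal1-/- mice (replicates 5, 8, 9 and 10). Per the labels, all mice were adults of 3 to 6 months, of the strain C57BL/6, held in 12 h light and 12 h dark. They received no other treatment that the labels name. The sources used here give neither the knockout allele nor whether the wild-type mice were littermates. No promoter-driven Cre is named, and the genotype is given for the mouse, not for a cell type of the liver. Each library comes from 1 mouse. The signal is averaged over binding sites, so the Bmal1 gene itself and liver marker genes were not checked here. The 2 groups differ in genotype and share tissue, time, light cycle and protocol as far as the labels state them.

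The assay was MNase-seq of crosslinked liver nuclei. Micrococcal nuclease cuts the DNA between nucleosomes, and the sequenced fragments, about the length of the DNA wound on 1 histone octamer, report where DNA was protected. BMAL1 pairs with CLOCK (CLK), and the pair binds E-box elements and activates clock genes such as the Per and Cry genes, whose protein products inhibit the pair. In mouse liver the pair binds its sites mainly in the light phase and little in the middle of the night, when PER and CRY proteins are abundant. Sites bound by transcription factors commonly show fewer protected fragments than the DNA beside them. The comparison at ZT18 addresses what nucleosome signal the sites have without BMAL1 at a time when BMAL1 binds them little even in wild-type liver.

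The sites were CLK:BMAL1 ChIP-seq peaks, given as profiles averaged over 27 peak sets, each with 300 positions of 10 bp. The all-peak set is named for 3216 peaks. By the class given in the deposited list, introns held 1412 peaks (43.9%) and the rest of gene bodies 6.56% of all. Another 583 (18.1%) were at a transcription start site (TSS), and 717 (22.3%) were intergenic and over 10 kb from any gene. The remaining 9.14% were intergenic but less than 10 kb away. The profile of gene body peaks outside introns was obtained by subtraction, which gave 28 sets. These sets overlap, and they share the same mice and fragments. Relative depth, with the shallowest library of the series at 1, was 1.41 ± 0.201 for the wild-type libraries and 1.23 ± 0.137 for the Bmal1-/- ones (SD, n = 4 each). The difference of -0.174 was not past the threshold (exact permutation p = 0.2). Central positions of the all-peak set were covered by 28576 to 37951 fragments, so the counting error was at most 0.592%, well below the spread between mice.

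The measure used throughout is relative central signal, the mean signal within 150 bp of the window middle in percent of the mean beyond 1000 bp, called the flank. A lower value is a deeper trough, and differences, Bmal1-/- minus wild type, are in percentage points. Tests between the groups are exact two-sided permutation tests of the difference of means. The 70 assignments of 8 mice to 2 groups of 4 allow no p below 0.0286, which is reached only when the groups do not overlap. With 1 mouse or series left out, 4 are set against 3 and there are 35 assignments. Groups that do not overlap can then give a p of 0.0571 as well as 0.0286. The 97.1% intervals hold the shifts that this test does not reject.

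Both genotypes had a trough at the sites at ZT18. Over all peaks, relative central signal was 70.4%, 73.07%, 74.6% and 72.3% in wild-type replicates 11, 12, 26 and 27. It was 75.3%, 68.2%, 79.1% and 82.1% in Bmal1-/- replicates 5, 8, 9 and 10. Replicates 5, 9 and 10 lay above every wild-type mouse and replicate 8 lay below every one. Wild-type mice averaged 72.6% ± 1.76 and Bmal1-/- mice 76.2% ± 5.99 (SD, n = 4 each). The difference, 3.57 percentage points, was not past the threshold (exact permutation p = 0.286, adjusted p = 0.615 over 28 sets, 97.1% interval -6.39 to 11.7). Without Bmal1-/- replicate 8 the difference was 6.21 (exact permutation p = 0.0286, adjusted p = 0.114), and without replicate 10 it was 1.59.

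**Figure D1:**
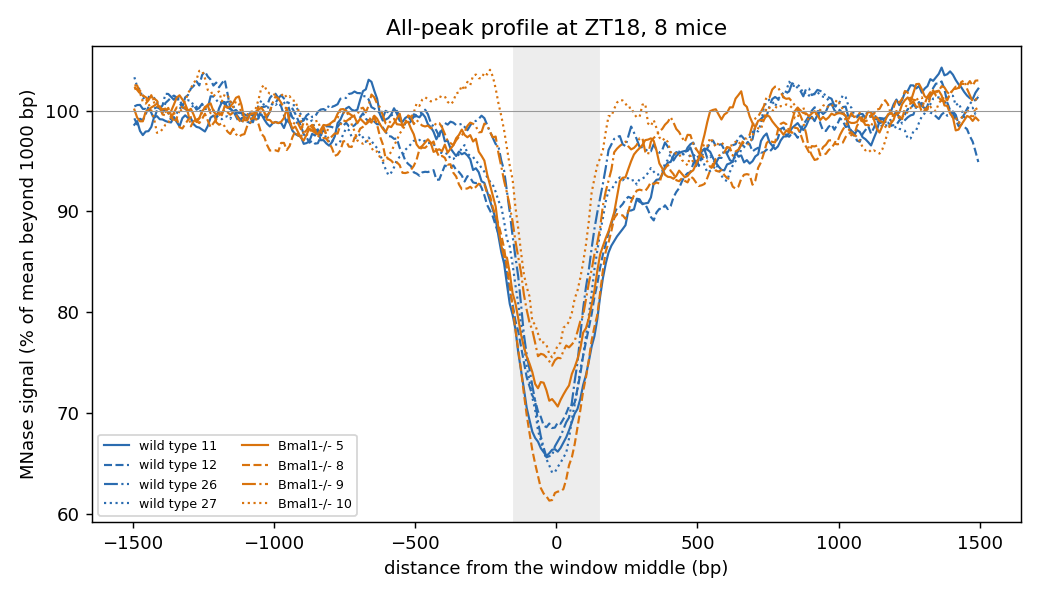
MNase signal in percent of the flank (vertical axis) against the distance from the window middle in bp (horizontal axis) for the all-peak set at ZT18. Each line is 1 mouse, blue for wild type and orange for Bmal1-/-, and the grey band marks 150 bp to each side. The lines of the 4 wild-type mice run between the lowest orange line, replicate 8, and the 3 other orange lines at the middle.

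The shape of the trough was described for each mouse from means over 50 bp. The lowest value of the all-peak profile was 66.1%, 68.7%, 66.1% and 64.5% of the flank in the wild-type mice and 71.1%, 61.7%, 75.2% and 76.2% in Bmal1-/-, in the order of replicates above. It lay between -25 and -5 bp from the window middle in all 8 mice. The width of the trough midway between its lowest value and the flank was 297.4 ± 48.3 bp among wild-type mice and 296.01 ± 40.04 bp among Bmal1-/- mice (SD, n = 4 each). The trough lay at the same place in both groups, and the widths overlapped almost fully, at 243.9 to 342.01 bp and 243.4 to 340.3 bp.

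Beside the trough the genotypes lay closer together. From 150 to 300 bp, the signal was 88.2%, 89.02%, 96.2% and 91.9% of the flank in the wild-type mice and 91.2%, 88.9%, 95.4% and 100.1% in Bmal1-/-. These values overlapped, and the means were 2.57 percentage points apart (exact permutation p = 0.514), with 0.496 without Bmal1-/- replicate 10 and 4.23 without replicate 8. Bmal1-/- replicate 10 was the only mouse at the flank level there. The difference was 1.32 from 300 to 500 bp and -0.356 from 500 to 1000 bp (exact permutation p = 0.371 and 0.714). The central 150 bp to the left and to the right gave 3.81 and 3.33 (exact permutation p = 0.286 and 0.343). Of the 13 tests over distance bands and their left and right sides, none passed, and the adjusted p was at least 0.743 in each. Without replicate 8, the left side gave 6.53 (exact permutation p = 0.0286) and the right side 5.90 (p = 0.0857).

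Position by position, limma fitted on all 47 libraries called 0 of 8100 positions of the 27 sets as higher and 0 as lower in Bmal1-/- at ZT18 (0% in each direction at adjusted p under 0.05). At an unadjusted p under 0.05, positions covering 2710 bp of all sets were higher and 1400 bp lower. Widths for all sets count 10 bp for each of the 8100 positions and are summed over overlapping sets. With so many positions tested, many pass an unadjusted p under 0.05 by chance. The unadjusted widths at ZT18 thus do not by themselves show a difference between the genotypes. In the all-peak profile the largest fitted difference was 0.10 ± 0.070 (SE) in log2(percent of flank + 1) at -35 bp, with a limma adjusted p of 0.958. Over the same 8100 positions, the fit called 2430 bp as higher in Bmal1-/- at ZT02, 4640 bp at ZT06 and 1870 bp at ZT10. At ZT06 the fit also called 10 bp as lower, against 0 bp at ZT02 and ZT10. It called 0 bp at ZT14 and ZT22, where 800 and 637 of the 8100 positions (8000 and 6370 bp) were higher at an unadjusted p under 0.05. In plain ranks, every Bmal1-/- mouse lay above every wild-type mouse at 1.33% of the 8100 positions and below at 1% at ZT18. The share above was 6.74% at ZT02, 7.51% at ZT06, 7.65% at ZT10, 5.72% at ZT14 and 4.78% at ZT22. The share below at those times was 1.54%, 0.605%, 0.778%, 0.852% and 1.16%. Each direction is 1 of 70 assignments with 4 mice a group, but 1 of 35 at ZT22, which has 3 Bmal1-/- mice. The ZT22 shares thus cannot be set against the others as equals. Among the times with equal groups, ZT18 had the smallest share above and a share below inside the range of the others. None of the 300 positions of the all-peak profile separated the groups in either direction at ZT18, against 220, 380, 320 and 280 bp with Bmal1-/- above at ZT02, ZT06, ZT10 and ZT14 and 50 bp at ZT22. With Bmal1-/- below, the widths were 100, 0, 80 and 10 bp at ZT02, ZT06, ZT10 and ZT14 and 0 bp at ZT22.

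As scaled by the authors, without division by the flank, central signal over all peaks was 4.98 ± 0.167 for wild-type mice and 5.06 ± 0.555 for Bmal1-/- mice (SD, n = 4 each). The groups were 0.0848 signal units apart, with overlapping values (exact permutation p = 0.83). Flank signal was 6.86 ± 0.215 and 6.64 ± 0.315, a difference of -0.222 (exact permutation p = 0.314). Bmal1-/- replicate 8 had the lowest value of all 8 mice on both measures, 4.24 in the centre and 6.22 in the flank. Its relative depth was 1.38, the highest of the 4 Bmal1-/- libraries. The central difference without this mouse was 0.358 (exact permutation p = 0.0286). Whether the handling of this mouse had a part in its values was not tested.

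The genomic classes were then taken one by one. At intron peaks, the largest class, relative central signal was 70.5%, 74.1%, 78.7% and 74.6% in the wild-type mice and 80.2%, 72.7%, 83.4% and 84.7% in Bmal1-/-. Replicates 5, 9 and 10 lay above every wild-type mouse, and replicate 8 lay within the wild-type range. The means were 74.5% ± 3.38 and 80.3% ± 5.35 (SD, n = 4 each), so Bmal1-/- was higher by 5.78 percentage points, which was not past the threshold (exact permutation p = 0.143; 97.1% interval -5.98 to 14.2).

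At the other gene body peaks, wild-type mice had 79.6%, 75.3%, 78.3% and 78.2%, and Bmal1-/- mice had 80.5%, 67.8%, 85.7% and 97.2%. The trough of replicate 10 was nearly absent in this small set, while that of replicate 8 was the deepest of the 8 mice. The difference was 4.94 percentage points (exact permutation p = 0.486). Leaving out replicate 8 gave 9.92 (exact permutation p = 0.0286) and leaving out replicate 10 gave 0.151 (p = 0.971).

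TSS peaks, which lie where RNA polymerase starts transcription and nucleosomes are usually depleted, had the deepest trough of the 5 classes in both genotypes. Their relative central signal was 60.3%, 61.3%, 60.2% and 58.7% in wild type. In Bmal1-/- it was 59.8%, 50.4%, 58.5% and 69.1%, with 1 mouse above and 2 mice below all of wild type. The means were 60.1% ± 1.11 and 59.4% ± 7.66 (SD, n = 4 each). The difference was -0.703 (exact permutation p = 0.714; 97.1% interval -10.9 to 10.4), and it turned to 2.30 without replicate 8. The SD of the Bmal1-/- mice was the larger in this class, as it was in 25 of the 28 sets.

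At intergenic peaks less than 10 kb from a gene, wild-type mice had 73.1%, 76.9%, 78.8% and 79.03%. Bmal1-/- mice fell on both sides of them, with 70.5% and 71.5% in replicates 5 and 8 and 84.4% and 82.1% in replicates 9 and 10. The difference of the means was 0.185 percentage points (exact permutation p = 0.943; 97.1% interval -8.54 to 11.4), and its sign changed with the flank and with the mice included. At intergenic peaks beyond 10 kb, the values were 74.2%, 77.9%, 75.1% and 73.8% in the wild-type mice and 77.6%, 72.2%, 82.6% and 82.2% in Bmal1-/-. Replicates 9 and 10 lay above every wild-type mouse there, and the difference was 3.41 percentage points (exact permutation p = 0.257). It ran from 2.10 without replicate 9 to 5.56 without replicate 8.

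The classes differed from one another within each mouse. Relative central signal at introns minus that at TSSs was 10.1, 12.8, 18.5 and 15.96 percentage points in the wild-type mice and 20.5, 22.3, 24.9 and 15.6 in the Bmal1-/- mice. All 8 mice had the shallower trough at introns, and Bmal1-/- replicate 10 was the only one of its group within the wild-type range. The contrast was 14.3 ± 3.65 for wild-type and 20.8 ± 3.94 for Bmal1-/- mice (SD, n = 4 each). It differed by 6.49 percentage points between genotypes, which missed the threshold at ZT18 (exact permutation p = 0.0857; 97.1% interval -2.90 to 14.8). At the other 5 times the same value ran from 6.03 to 8.13, so on this contrast ZT18 lay inside the range of the other times.

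**Figure D2:**
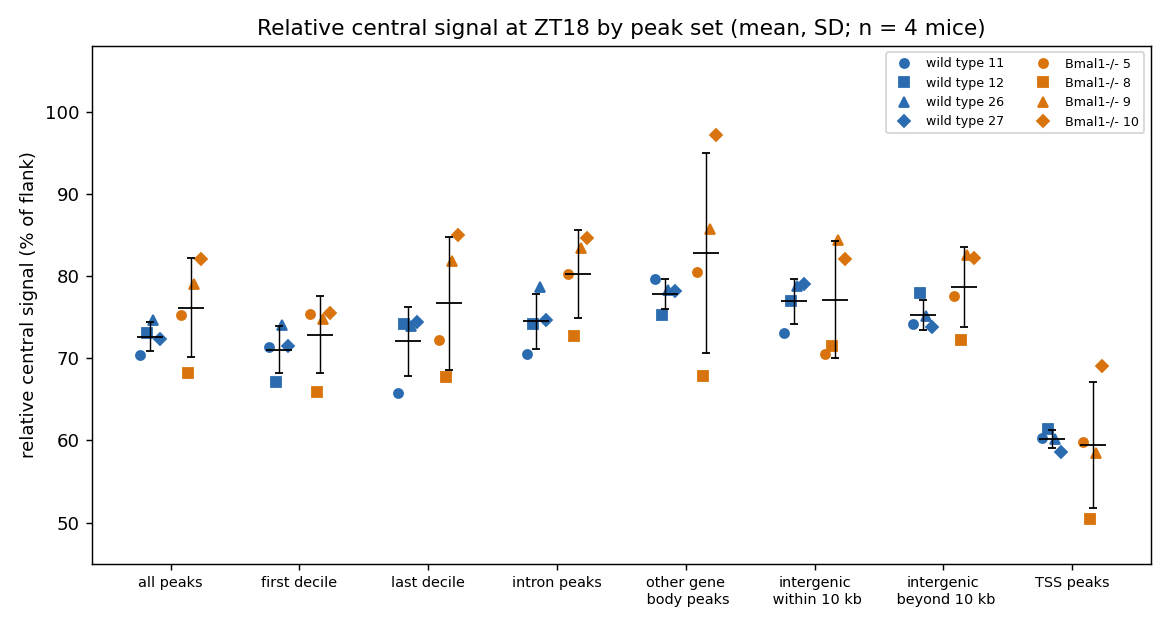
Relative central signal in percent of the flank (vertical axis) at ZT18 for 8 peak sets (horizontal axis). Symbols are single mice, blue for wild type and orange for Bmal1-/-, with the mean and SD in black (n = 4). Replicate 8 (orange squares) was below the other Bmal1-/- mice in all sets shown except intergenic peaks within 10 kb, where replicate 5 was lower at 70.5%.

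The deciles of the peak list were compared next. The first decile holds 322 peaks from the top of the list, whose order is not explained in the sources used here. Its relative central signal was 71.3%, 67.2%, 74.02% and 71.6% in the wild-type mice and 75.3%, 65.9%, 74.8% and 75.5% in Bmal1-/-. Replicates 5, 9 and 10 lay just above the highest wild-type mouse and replicate 8 below the lowest. The difference was 1.86 percentage points (exact permutation p = 0.514), with a 97.1% interval of -8.13 to 8.38. It was 4.19 without replicate 8 (exact permutation p = 0.0571), 0.570 without wild-type replicate 12, and 1.23 and 0.974 without Bmal1-/- replicates 9 and 10. The whole interval lies below the 14.9 percentage points by which Bmal1-/- exceeded wild type in this decile on average over ZT02, ZT06, ZT10 and ZT14. That average has a spread of its own. The 97.1% intervals at these times began at 2.43, 7.67, 5.82 and 2.15, so each overlapped that of ZT18.

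In the last decile, wild-type mice had 65.7%, 74.2%, 73.9% and 74.4% and Bmal1-/- mice 72.3%, 67.7%, 81.8% and 84.98%. Here wild-type replicate 11 was the lowest of the 8, and the difference was 4.63 percentage points (exact permutation p = 0.343). It ran from 1.86 without Bmal1-/- replicate 10 to 7.62 without replicate 8. Across all deciles Bmal1-/- was higher in 8 of 10 by the means, and lower by -1.78 in the fifth and -1.20 in the seventh. The eighth decile was the only one whose groups did not overlap, with 66.6%, 70.95%, 73.02% and 72.2% in the wild-type mice and 79.8%, 75.3%, 80.3% and 80.5% in Bmal1-/-. Bmal1-/- was higher by 8.25 there (exact permutation p = 0.0286, adjusted p = 0.4), and in this decile replicate 8 did lie above wild type. Without wild-type replicate 11 or 12 the groups still did not overlap (6.90 and 8.34). The exact permutation p of 0.0571 there reflects the coarser test with a mouse fewer. The call was lost with the centre within 250 bp (7.12, exact permutation p = 0.0571). The eighth decile was singled out after its values were seen.

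A least-squares slope over deciles 1 to 10 was taken for each mouse. It was -0.601, -0.0772, -0.0394 and 0.208 percentage points per decile in the wild-type mice and -0.164, -0.00214, -0.0287 and 0.130 in Bmal1-/-. Both groups thus had slopes on either side of 0. The slopes differed by 0.111 between genotypes at ZT18 (exact permutation p = 0.686). At ZT02 and ZT06 they differed by -1.12 and -1.04 (exact permutation p = 0.0286 each), where the wild-type slopes were 0.741 ± 0.525 and 1.05 ± 0.208 (SD, n = 4). At ZT10 the value was -0.714 (exact permutation p = 0.0571), at ZT14 -0.115 (p = 0.6) and at ZT22 -0.372 (p = 0.371). An order of the genotype difference along the list was thus not detectable at any of the 3 dark times.

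**Figure D3:**
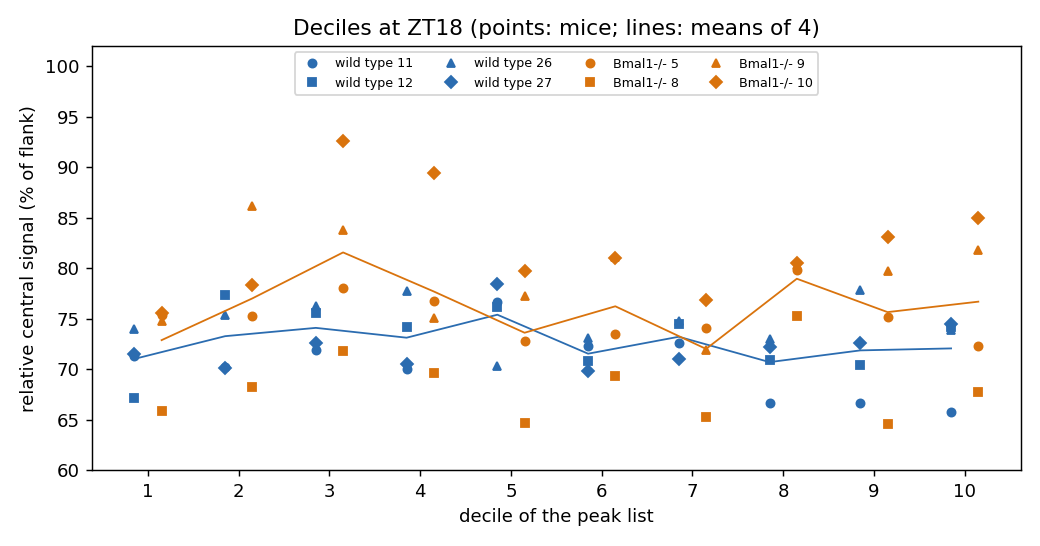
Relative central signal in percent of the flank (vertical axis) at ZT18 for deciles 1 to 10 of the peak list (horizontal axis). Symbols are single mice, blue for wild type and orange for Bmal1-/-, and lines join the means of 4 mice. The eighth decile is the only one in which all orange symbols lie above all blue ones.

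Counted over the 28 overlapping sets, Bmal1-/- had the higher mean in 21 and the lower in 7. The median difference was 3.65 percentage points, with a range of -1.78 to 8.37. At exact permutation p under 0.05 there were 2 sets (7.14%), and 0 after adjustment over the 28 sets (smallest adjusted p = 0.4). Beside the eighth decile, the other was the top 25% of intergenic peaks beyond 10 kb, with 74.5% to 78.2% in the wild-type mice and 79.2% to 80.9% in Bmal1-/-. The means were 3.28 apart (exact permutation p = 0.0286, adjusted p = 0.4). This call was lost with the centre within 50 bp (6.23, exact permutation p = 0.114) or 250 bp (1.30, p = 0.543). Without any one Bmal1-/- mouse the difference was 2.91 to 3.46 and the groups still did not overlap. The exact permutation p of 0.0571 there reflects the coarser test with a mouse fewer. The largest difference, 8.37 in the top 400 gene body peaks, did not pass (exact permutation p = 0.2). Replicate 8 lay at 70.3% there, below the wild-type mice at 70.9% to 78.8%, while the other 3 Bmal1-/- mice lay above them.

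The Bmal1-/- mice kept much of their order from set to set. Bmal1-/- replicate 8 was the lowest of the 8 mice in 18 of 28 sets, replicate 10 was the highest in 16 and replicate 9 in 9. Replicate 8 was also the lowest Bmal1-/- series at 3 of its 5 times over all peaks and at 4 of 5 in the first decile. Without replicate 8, all 28 sets were higher in Bmal1-/- at ZT18, by a median of 6.43 percentage points, and 7 passed at exact permutation p under 0.05 (adjusted p = 0.114). Even so, the median stayed below those of the other times, which were 14.7, 15.7, 10.05 and 11.6 from ZT02 to ZT14 without that series and 8.56 at ZT22.

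With all mice, Bmal1-/- had the higher mean in all 28 sets at each of the other 5 times. The median difference over sets was 12.7 at ZT02, 13.2 at ZT06, 9.85 at ZT10, 10.8 at ZT14 and 8.56 percentage points at ZT22, against 3.65 at ZT18. The sets at exact permutation p under 0.05 were 18 (64.3%), 20 (71.4%), 21 (75%), 11 (39.3%) and 3 (10.7%) in that order. ZT22 has 3 Bmal1-/- mice and no replicate 8, so its count and its median cannot be set against those of ZT18 as equals.

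**Figure D4:**
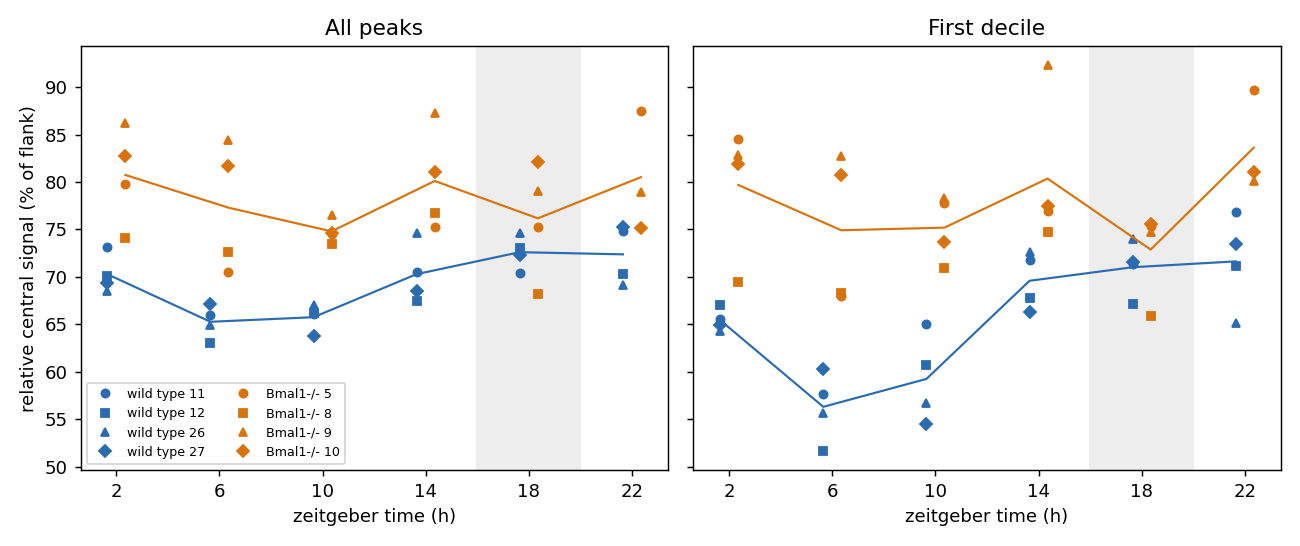
Relative central signal in percent of the flank (vertical axis) against zeitgeber time in h (horizontal axis) for all peaks (left) and the first decile (right). Symbols are single mice, blue for wild type and orange for Bmal1-/-, lines join the means, and the grey band marks ZT18. In the first decile the orange mean is 72.9% at ZT18 and the blue mean 71.02%, whereas they are 74.9% and 56.3% at ZT06.

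Whether the genotype difference itself was smaller at ZT18 was tested on series, a series being the libraries that carry the same replicate number at several times. For each series, the mean at ZT02, ZT06, ZT10 and ZT14 was subtracted from the value at ZT18, and the 8 results were compared by the exact permutation test. ZT22 was left out because Bmal1-/- replicate 8 has no library there. Each library is a different mouse, and the labels do not say that a shared number ties mice together, so a value of a series is a difference between mice and not a change within one. In the first decile the ZT18 value minus the others was 6.35, 5.38, 11.7 and 10.05 percentage points in the 4 wild-type series. It was -1.50, -4.95, -9.31 and -2.90 in the 4 Bmal1-/- series. The wild-type values were thus all above 0 and the Bmal1-/- values all below, with means of 8.37 ± 3.003 and -4.66 ± 3.40 (SD, n = 4 series each). The genotype difference was 14.9 percentage points at the 4 other times and 1.86 at ZT18, a change of -13.0 (exact permutation p = 0.0286, the smallest possible; 97.1% interval -21.03 to -6.88). The exact permutation p was 0.0286 in each of the 15 alternatives tried.

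Against each time alone, the first-decile difference was smaller at ZT18 by 12.4 percentage points than at ZT02, 16.8 than at ZT06, 14.1 than at ZT10 and 8.92 than at ZT14 (exact permutation p = 0.0286, adjusted p = 0.0357 over 5 times, for each). Against ZT22, with 4 and 3 series, the value was -7.80 (exact permutation p = 0.143). These tests share the same ZT18 libraries, and their adjustment covers the times and not the 28 sets. Over the 28 sets, the first-decile contrast with ZT02 to ZT14 together had an adjusted p of 0.0615 (exact permutation test). Relative to ZT06, 12 h away, the wild-type mean was 14.7 percentage points higher at ZT18 and the Bmal1-/- mean 2.04 lower.

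Over all peaks the same value was 1.46, 6.38, 5.86 and 5.13 percentage points for the wild-type series and 0.219, -6.01, -4.55 and 2.09 for the Bmal1-/- series. The groups overlapped, since Bmal1-/- replicate 10 lay above wild-type replicate 11. Their averages were 4.71 ± 2.22 and -2.06 ± 3.84 (SD, n = 4 series each), and their difference of -6.77 missed the threshold (exact permutation p = 0.0571). Against single times it was -6.89, -8.46, -5.48 and -6.25 from ZT02 to ZT14 and -1.92 at ZT22, and none passed (exact permutation p = 0.0571, 0.0571, 0.0857, 0.171 and 0.743, adjusted p at least 0.143). Leaving out Bmal1-/- replicate 10 gave -8.16 (exact permutation p = 0.0286).

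The classes were taken in the same way. At intergenic peaks within 10 kb the genotype difference changed by -10.6 percentage points, from 10.8 at the other 4 times to 0.185 at ZT18. Beyond 10 kb it changed by -6.71, from 10.1 to 3.41 (exact permutation p = 0.0286, adjusted p = 0.0615, for both). The first of these calls was lost with a flank farther from the middle and without any wild-type series or Bmal1-/- replicate 5 or 8 (-12.001 to -8.97, exact permutation p = 0.0571). The second was lost without wild-type replicate 12 (-5.38, exact permutation p = 0.0571) or with a centre of 250 bp to each side (-4.84, p = 0.143). The exact permutation p of 0.0571 without a series reflects the coarser test, as the groups of series still did not overlap in either class. At intron peaks the value was -6.62, from 12.4 to 5.78, and the groups of series overlapped (exact permutation p = 0.0571); with the centre within 50 bp it was -7.71 and with a farther flank -7.16 (p = 0.0286 for both). At TSS peaks the value was -5.78 (exact permutation p = 0.257). At other gene body peaks it was -4.87 (exact permutation p = 0.486), with Bmal1-/- series from -11.1 to 13.1, and -8.91 without replicate 10 (p = 0.0286). In the last decile it was -2.37 (exact permutation p = 0.371), with 3 of 4 wild-type series above 0 and 3 of 4 Bmal1-/- series below. Whether the classes differed from one another in this value was not tested.

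Of the 28 sets, the genotype difference was smaller at ZT18 in all 28 by the means, and in 13 (46.4%) at exact permutation p under 0.05. None passed adjustment over the 28 sets (smallest adjusted p = 0.0615), which 13 sets at the smallest possible p set. The 13 became 7 without Bmal1-/- replicate 5, although leaving out a series cannot make the groups of these 13 sets overlap. That fall reflects the coarser test with a series fewer. Without Bmal1-/- replicate 10 there were 16, with an adjusted p of 0.05 that is at the threshold and not under it. Among the deciles, 4 of 10 were at exact p under 0.05. By position, limma called 0 of 8100 positions for the same contrast (0% at adjusted p under 0.05). At an unadjusted p under 0.05, 1290 bp were higher and 5040 bp lower, summed over overlapping sets and including positions that pass by chance.

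**Figure D5:**
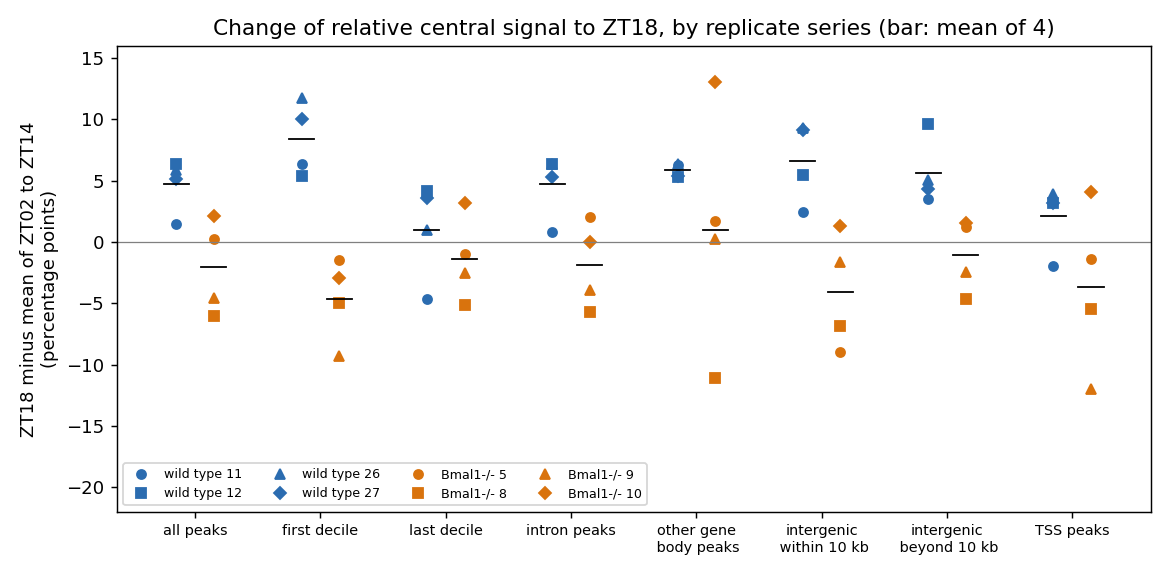
Relative central signal at ZT18 minus the mean of ZT02, ZT06, ZT10 and ZT14 in percentage points (vertical axis) for 8 peak sets (horizontal axis). Each symbol is 1 replicate series, blue for wild type and orange for Bmal1-/-, and black bars are means of 4 series. In the first decile the wild-type series lie between 5.38 and 11.7 and the Bmal1-/- series between -9.31 and -1.50.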

How the data were processed

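Values are MNase signal, that is coverage scaled by the authors and deposited as averages over ChIP-seq peak sets. A second deposited table gives peak positions (mm9) and 1 genomic class for each of 3217 peaks. CASAVA 1.7 and Bowtie were used, per the submitters' processing notes. What the signal was scaled to, how duplicates were handled and how the peak list was ordered is not stated. Signal was divided by the mean beyond 1000 bp, which removes differences in overall level and would hide a change that reached the flank. Exact permutation tests and depth were computed in Python 3.11.15, and depth was read from the whole steps of the signal in small sets (100% of values within 0.1 of a step). Positions were tested with limma 3.58.1 (R 4.3.3; eBayes with a trend, 47 libraries in 12 groups, pseudocount of 1 percent) and Benjamini-Hochberg adjustment. The procedures were tested on simulated data with independent noise. Real positions and sets share fragments, so this does not give the power or the share of false calls by position here. All peaks, the first and last deciles and the 5 classes are described by mouse, and other sets by counts and ranges. Members, sets and measures were chosen with earlier results of these data known. Single peaks, genes and sequences were not analysed here. Alternatives changed the centre, the flank, the mice included, the limma settings and the replicate block.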

Additional observations from a re-analysis of the deposited data

Results flagged for a closer look

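At ZT18, 30 groups of 4 values were examined, all from the same 4 wild-type or the same 4 Bmal1-/- mice and in part overlapping. In 2 of the 30, a mouse lay far from the other 3. Chance gives about 5%, so 2 of 30 is near the chance share. In the first decile, Bmal1-/- replicate 8 had a relative central signal of 65.9% and the nearest mouse of its group 74.8%. In the last decile, wild-type replicate 11 had 65.7% and the nearest mouse of its group 73.9%.

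The genotype difference at ZT18 differed from that over ZT02, ZT06, ZT10 and ZT14 by -13.0 percentage points in the first decile, by -10.6 at intergenic peaks less than 10 kb from a gene and by -6.71 at those farther away (exact permutation p = 0.0286 each, adjusted p = 0.0615 over 28 sets).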

How the results depend on the processing

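Over all peaks at ZT18, the counting error of at most 0.592% was below the spread between the 4 mice of a group. It was not computed for the smaller sets. Leaving out 1 mouse in turn gave 1.59 to 6.21 over all peaks, 0.570 to 4.19 in the first decile, 1.86 to 7.62 in the last, 2.10 to 5.56 at intergenic peaks beyond 10 kb, -3.92 to 2.30 at TSS peaks and -2.25 to 2.41 at intergenic peaks within 10 kb, where a flank farther from the middle gave -0.132 and the median of the flank -0.810. It gave 0.151 to 9.92 at other gene body peaks, -0.0487 to 0.358 signal units for central and -0.337 to -0.0821 for flank signal on the authors' scale, and -0.0466 to 0.223 for the decile slope. It gave 0.496 to 4.23 from 150 to 300 bp and 0.439 to 2.22 from 300 to 500 bp. From 500 to 1000 bp it gave -0.694 to 0.302 (left -0.876 to 0.0240, right -0.745 to 0.580), and on the left from 300 to 500 bp -0.000884 to 2.22. The 2 sets past the test became 1 with the centre within 50 bp, 0 within 250 bp, and 1 to 7 without 1 mouse. A fall without 1 mouse or series reflects the coarser test, since leaving one out cannot make separate groups overlap. The cause of the other changes was not tested. For ZT18 against the other times, all peaks gave -7.60 with the centre within 50 bp (exact permutation p = 0.0286) and -8.16 to -5.46 without 1 series, and 7 to 16 sets passed without 1 series (13 with all). The limma counts at ZT18 and for its contrast with the other times stayed at 0 in each of the 13 alternatives run for each. With the replicate block the contrast with the other times gave 0 of the 8100 positions. At an unadjusted p under 0.05 it gave 862 of the 8100, against 633 without the block. Libraries with the same number deviated together (r over 0.1) in 80.9% of pairs (median r 0.356, lowest -0.698), against 38.02% of pairs with different numbers or genotypes (median r -0.0667). Deviations from a group mean cancel within the group, so a rise in same-number pairs by itself lowers the other pairs of that genotype. The pairs also reuse the same libraries. The comparison is thus only a hint from the data, and the labels do not state a pairing. The alternatives for the last and the eighth decile, the other gene body and intergenic sets, the contrasts of single classes with the other times and the count of 13 sets were chosen after seeing the data.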
